A study of Mus musculus with 12 samples.

Results

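The members were 6098 probes for noncoding RNAs on a custom mouse expression array. Each probe was a DNA oligonucleotide of 60 bases, written in the letters of the RNA strand that it reads. They were chosen on measured values, in 2 steps. A noncoding RNA probe was kept when its spot was well above the local background on all 12 arrays, and it was left out again when each of the 10 stimulated arrays lay at least 1 log2 above both unstimulated arrays. The array carried 61307 non-control probes, of which 20679 were noncoding RNA probes, so that the members made up 29.5% of the noncoding RNA probes. The second step left out 4 probes. Another 383 noncoding RNA probes were well above background on 11 arrays, and 7619 on none. The same 2 steps kept 19927 of the 40628 other probes (49.0%), and these served as the comparison class. A level is given throughout as the log2 processed signal minus the 75th percentile of its array.

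RNA came from resting B (RB) cells of the spleens of BALB/c mice, 6 weeks old and female by the labels, from which cells bearing CD43 had been removed, and all cells had been in culture for 4 h. There were 6 groups with 2 arrays each. Cells were left unstimulated, or received 1 agent (Pam2CSK4, an antibody to CD86 or an antibody to CD40), or received Pam2CSK4 together with either antibody. These combinations are called TLR2.CD86 and TLR2.CD40 here. The study calls its replicates biological, and the labels do not say whether both arrays of a group came from separate cultures or mice, so p-values measure only the spread between these arrays. The question was how the class of expressed noncoding RNA probes behaved in each group beside the other probes, and which members differed between stimulations.

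The arrays lay on 2 slides. Slide 1 held 8 arrays, which were both unstimulated arrays, both TLR2.CD40 arrays and replicate 1 of the other groups, and slide 2 held the 4 arrays of replicate 2 of Pam2CSK4, anti-CD86, TLR2.CD86 and anti-CD40. The median processed intensity was 17.3 to 23.6 on slide 1 and 31.0 to 51.3 on slide 2, and 46.6% to 60.6% of the spots of an array were well above background. Of the B cell marker genes with a probe, 8 of 8 were well above background on all 12 arrays, with a summed linear level of 321 to 504. Genes of other cells were present too. The summed level was 15.7 to 26.3 for 6 T cell genes (5 well above background on all arrays), 3.08 to 4.76 for 3 NK cell genes (2), 7.02 to 15.1 for 5 myeloid genes (5), 58.4 to 106 for 3 red cell genes (3), 7.76 to 13.4 for 3 plasma cell genes (3) and 0.494 to 1.07 for 7 genes of the exocrine pancreas (1). The 4 probes of Xist were well above background in 1 of 48 readings (4 probes on 12 arrays), whereas Ddx3y, Eif2s3y and Kdm5d of the Y chromosome were well above background on all 12, which goes against the female label.

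Noncoding RNAs of the class that fills this array are long transcripts that are spliced and polyadenylated like messenger RNAs but lack a long reading frame. Many of them, unlike most messenger RNAs, carry pieces of repeats in their exons, among them the short interspersed elements B1 and B2, simple repeats, and the major satellite, the tandem repeat of the chromatin around mouse centromeres that is known to be transcribed from both strands. Pam2CSK4 is a synthetic lipopeptide that activates Toll-like receptor 2, and CD86 and CD40 are costimulatory molecules on the B cell surface that were engaged by antibodies. By the class names in the probe table, 6092 members were mRNA-like, and the other 6 were u4946 (a snoRNA), n793 (SRA), u2116 (GNAS1), n4997 and u4397 (BC1 of the deer mouse) and n1079 (H19 of the deer mouse). A letter n or u stood before each transcript number, and the 6098 probes covered 5409 transcript numbers. Genome coordinates were not used here.

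The sequences that the results below turn on are shown first. The names major satellite, B1 and B2 were given from background knowledge of these repeats, after the values had been seen. The major satellite probes on the second strand follow, with capitals on the longest run that is the reverse complement of a run in a probe of the first strand.
n211992: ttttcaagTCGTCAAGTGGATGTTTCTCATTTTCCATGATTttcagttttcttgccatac
n207171: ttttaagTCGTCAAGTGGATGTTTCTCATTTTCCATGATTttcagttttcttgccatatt
n196535: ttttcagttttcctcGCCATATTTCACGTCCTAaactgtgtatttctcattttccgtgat

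The probes of the first strand that begin at the same base of the repeat are shown because they separate by a single letter. Capitals mark the bases that differ from u201771, and positions count from 1 at the 5′ end of the probe.
u201771: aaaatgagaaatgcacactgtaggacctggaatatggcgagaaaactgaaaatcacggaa
u201775: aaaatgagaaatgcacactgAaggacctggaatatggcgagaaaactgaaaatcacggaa
u185473: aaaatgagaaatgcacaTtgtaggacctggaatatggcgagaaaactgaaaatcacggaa
n207168: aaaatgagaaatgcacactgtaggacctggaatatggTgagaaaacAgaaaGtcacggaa
n196533: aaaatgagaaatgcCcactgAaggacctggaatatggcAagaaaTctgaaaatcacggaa

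Members with simple repeats and with B1 letters came next in weight. The TG run of n179056 is shown in capitals. In u201085 and n198343 the capitals mark motifs of B1, on the antisense strand in u201085 and on the sense strand in n198343.
n179056: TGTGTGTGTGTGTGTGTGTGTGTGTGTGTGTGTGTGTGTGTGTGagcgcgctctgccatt
u201085: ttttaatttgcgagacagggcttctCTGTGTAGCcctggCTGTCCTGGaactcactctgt
n198343: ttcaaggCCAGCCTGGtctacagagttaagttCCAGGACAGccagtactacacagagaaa

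The last set holds the members with the widest differences between stimulations among those tested. Capitals mark the longest run of C and T.
u178229: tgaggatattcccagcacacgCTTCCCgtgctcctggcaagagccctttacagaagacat
n202324: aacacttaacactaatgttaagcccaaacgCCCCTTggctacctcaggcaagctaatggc
u182895: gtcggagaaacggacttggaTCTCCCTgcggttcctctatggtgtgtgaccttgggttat

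The members differed in sequence from the 14581 noncoding RNA probes that the first step did not keep or the second left out. The probe table listed up to 10 identifiers for a probe, and 10 were listed for 1320 members (21.6%) against 2.35% of the other noncoding RNA probes. With 1 or 2 identifiers listed the shares were 55.2% and 82.0%. A run of 20 bases shared with another noncoding RNA probe on the same strand was found in 1416 members (23.2%) against 6.24%, and on the opposite strand in 707 members (11.6%) against 0.940%. A simple repeat of at least 20 bases, with a unit of up to 4 bases, was held by 235 members (3.85%) and by 25 of the other noncoding RNA probes (0.171%). The polyadenylation signals AATAAA and ATTAAA, by contrast, were as common in the members (5.23%) as in the rest (5.25%). The members were richer in GC (47.4% against 43.9%) and in C (24.3% against 20.8%) and poorer in A (24.2% against 28.1%). Brightness followed the listing. The median level was -1.18 for members with 1 or 2 identifiers, -0.68 with 3 or 4, -0.26 with 5 to 9, and 1.58 with 10, of which 9.77% were saturated on at least 1 array. Since a probe's brightness depends on its letters, levels of different probes describe the array and not the amounts of different RNAs. In all, 192 members were saturated on at least 1 array and 110 on all 12, and 5906 on none.

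The 10 brightest members were saturated on all 12 arrays, with mean levels of 7.74 to 7.80, and had no usable fold change. Of these, n179056, n181213 and u196930 held TG runs, n197682 held a GGAA run, and n198343 and u205361 held 2 motifs of B1 each. The B2 motifs GAGATGGCT and GACTGCTCT were held by n184890, and the B2 motif CAGCAACCA by u195602. The others were u185698 and n187111. Nearest to the background limit were n180773, u178132, n194658, n180739 and n210926, whose lowest signal was 1.00 to 1.02 times the dimmest signal called well above background on the same array. At the limit of the second step, the smallest gap between a stimulated and an unstimulated array was 0.98 log2 for u205368, 0.95 for n206554, 0.88 for u190853, 0.86 for u193919 and 0.80 for u195285, which stayed in. It was 1.07 for u180569, 1.42 for n204209, 2.36 for n201347 and 4.50 for u200009, which were left out, and n204209 and n201347 lacked values on some arrays because of outlier spots. The letters of u205368, and those of n211588 and n211589 of the same transcript number, are, from background knowledge, those of mitochondrial 16S ribosomal RNA, and n211589 was saturated on all 12 arrays. The level of u205368 was -0.53 and -0.63 in unstimulated cells and 0.45 to 1.48 on the stimulated arrays.

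As a class, the members were dimmer than the other probes on every array, and the gap was smaller on every stimulated array than in unstimulated cells. The class level, the median of the members minus the median of the comparison class, was -2.0 ± 0.011 in unstimulated cells (SD, n = 2 arrays, here and below), -1.68 ± 0.298 with Pam2CSK4, -1.73 ± 0.239 with anti-CD86, -1.54 ± 0.334 with TLR2.CD86, -1.49 ± 0.418 with anti-CD40 and -1.73 ± 0.0274 with TLR2.CD40. Above unstimulated cells it therefore lay by 0.32, 0.27, 0.46, 0.51 and 0.27, in that order, with a pooled SD between replicates of 0.269. This is a description with no test, because the rule used stimulated against unstimulated arrays.

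This value differed between the slides by as much as between stimulated and unstimulated cells. Replicate 2 on slide 2 lay above replicate 1 on slide 1 by 0.42 for Pam2CSK4, 0.34 for anti-CD86, 0.47 for TLR2.CD86 and 0.59 for anti-CD40. On slide 1 alone, where every group had an array, the class level lay above unstimulated cells by 0.11 with Pam2CSK4, 0.10 with anti-CD86, 0.22 with TLR2.CD86, 0.21 with anti-CD40 and 0.27 with TLR2.CD40. The order of the groups thus changed, with TLR2.CD40 in front on slide 1. Against the 8477 comparison probes whose mean level lay between the lower and the upper quartile of the members (-1.88 to 1.54), the slide 1 values were 0.08, 0.08, 0.19, 0.21 and 0.27. No unstimulated array was on slide 2, so slide and stimulation cannot be told apart for the arrays of slide 2. Each array of slide 2 was also replicate 2 of its group, so slide and replicate cannot be told apart in these groups.

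**Figure D1:**
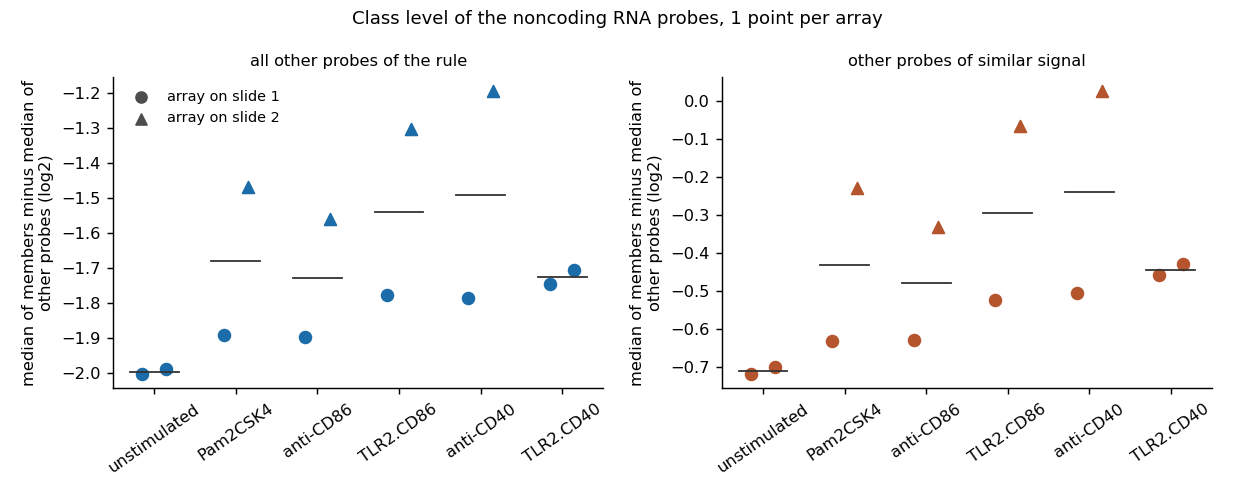
Class level per array, the median of the 6098 members minus the median of the comparison probes in log2 units, with all 19927 comparison probes on the left and the 8477 of similar signal on the right. Circles are arrays of slide 1, triangles arrays of slide 2 and short lines group means. On the left, the unstimulated arrays lie lowest, near -2.0, and each triangle lies above the circle of its group.

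The shift on slide 1 was spread over the range of signal. In 7 bins of mean level, from below -2 to above 4, the median difference of stimulated from unstimulated arrays on slide 1 was 0.12 to 0.17 for the members and -0.11 to -0.03 for the comparison probes. The difference between slides behaved otherwise. It fell from 0.40 in the dimmest members to -0.03 in the brightest, and lay between -0.24 and -0.02 in the comparison probes. In the members it also moved with the cytosine content of the probe. Members with up to 15% C lay 0.06 higher on slide 2 and the 483 members with over 35% C lay 0.67 higher, while the 119 comparison probes with over 35% C lay 0.59 higher. Comparison probes with less C showed no such rise. Their difference was -0.13 with up to 15% C and between -0.25 and -0.19 in the further bins up to 35% C. The 20 members with a slide difference of at least 2 log2 held 32.2% C and 62.3% C and T together on average, against 52.7% C and T in all members. On single arrays, 33.9% to 53.6% of the noncoding RNA probes and 52.5% to 64.0% of the other probes were well above background.

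Single members were next described against unstimulated cells, again with no test, by counting those whose arrays did not overlap and whose means lay at least 1 log2 apart. With Pam2CSK4, 252 members were higher and 25 lower, where 2.86% and 0.652% of all 31596 probes examined were, which is 4.13% and 0.410% of the members. With anti-CD86 there were 125 higher and 32 lower (background 2.07% and 0.975%), and with TLR2.CD86 397 higher and 42 lower (4.6% and 1.35%). Anti-CD40 gave 465 higher and 41 lower (5.8% and 1.5%), and TLR2.CD40 gave 253 higher and 52 lower (4.45% and 2.85%). Nothing is read from these shares, since the rule used the same contrast. With the array of slide 1 alone in place of both, Pam2CSK4 gave 125 higher and 51 lower (background 1.62% and 1.08%), and anti-CD86 gave 82 and 57 (1.84% and 1.63%). TLR2.CD86 gave 206 and 112 (3.16% and 1.93%) and anti-CD40 225 and 42 (3.71% and 1.92%). Fewer members were higher, and more were lower, than with both arrays in each of these groups. In all, 853 members were higher in at least 1 stimulation and 122 lower, 15 were higher in all 5 and 0 lower in all 5, and 5137 were in neither group. The steadiest unsaturated members were n201660, u201842, u198667, n188916 and u183833, and n201660 kept between 6.13 and 6.27 on the 12 arrays (SD 0.0408).

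Differences among the 5 stimulations were tested with limma on all 31596 probes, because the rule had not compared stimulations with each other. The rule did use the stimulated arrays for detection, since a member had to be well above background on every array. A probe that fell to background in any stimulation could not be a member. The 31596 probes had to be well above background only on the arrays of some condition. Shares of members and of all probes below therefore come from differently filtered sets. No such share is given for the comparison class. Of the 6098 members, 6062 had a value on every array and were tested. The moderated F-test called 894 members (14.7%) at an adjusted p under 0.05, a share close to the 14.5% of all probes fitted. With the slide as a block, 3271 members (54.0%) were called, where 52.4% of all probes were. The counts for the 8 pairs of stimulations are given next. All members called without the block were also called with it and had the same sign on each slide that held both groups.

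Few members passed the test between TLR2.CD86 and either agent alone, and more did with the slide as a block. TLR2.CD86 against Pam2CSK4 gave 11 members, 1 higher and 10 lower (0.181% of the members, background 0.0633%), and TLR2.CD86 against anti-CD86 gave 21, 14 higher and 7 lower (0.346%, background 0.225%). The block raised these to 817 (background 10.7%) and 741 (background 7.55%). The 21 included u178229, u182895 and n202324, whose differences were the largest and are described below. Each of the 11 changed by at least 2-fold, and 10 of them were the lower ones that had major satellite letters, as described below. The exception, u187465, was higher by 1.16 and lost its call when any of 10 arrays was left out (adjusted p up to 0.158).

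The pairs with TLR2.CD40 gave shares near those of all probes. TLR2.CD40 against anti-CD40 gave 217 members (3.58%, background 2.9%), evenly 109 higher and 108 lower, and 95 of them by at least 2-fold. TLR2.CD40 against Pam2CSK4 gave 516 (8.51%, background 9.91%), of which 418 were higher and 98 lower. TLR2.CD40 against TLR2.CD86 gave 640 members (10.6%, background 12.2%), 322 higher and 318 lower and 152 of them by at least 2-fold. With the slide as a block the counts were 999 (background 15%), 1821 (background 31.4%) and 1924 (background 34.5%). Both TLR2.CD40 arrays lay on slide 1, and without replicate 1 or replicate 2 of this group the last count was 147 or 149.

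Among single signals, anti-CD40 against anti-CD86 gave 623 members (10.3%, background 10%), 328 higher and 295 lower, and 186 of them by at least 2-fold. Anti-CD40 against Pam2CSK4 gave 238 (3.93%, background 4.45%), 196 higher and 42 lower, and anti-CD86 against Pam2CSK4 gave 81 (1.34%, background 0.82%), 63 higher and 18 lower. With the block they were 2284 (background 34.7%), 1338 (background 28%) and 1708 (background 18.9%). The surplus of higher calls depended on the scaling. With each array centred on its median, TLR2.CD40 against Pam2CSK4 gave 11 higher and 18 lower, anti-CD40 against Pam2CSK4 0 and 6, anti-CD86 against Pam2CSK4 0 and 11, anti-CD40 against anti-CD86 13 and 29, and TLR2.CD40 against anti-CD40 23 and 10. Median centring itself moved the median over all probes by 0.46 for TLR2.CD40 against anti-CD40, by -0.43 for anti-CD40 against anti-CD86, by -0.38 for anti-CD40 against Pam2CSK4, by 0.18 for TLR2.CD40 against TLR2.CD86 and by -0.15 for TLR2.CD86 against anti-CD86.

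**Figure D2:**
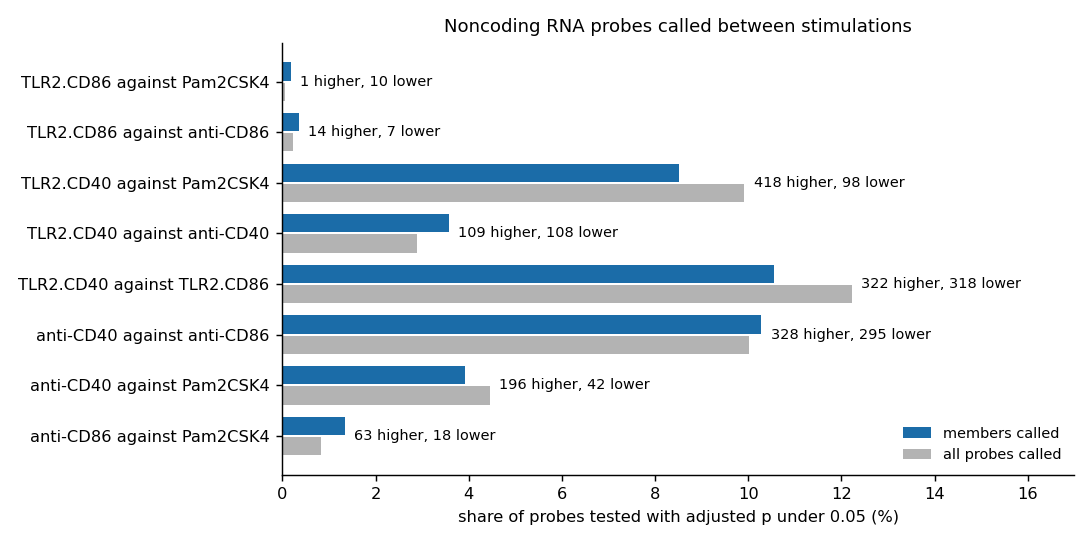
Share of the 6062 members tested (blue) and of all 31596 probes tested (grey) with a limma adjusted p under 0.05 in each of the 8 pairs of stimulations, as bars from 0%, with the counts of members higher and lower in the group named first. The pair TLR2.CD40 against TLR2.CD86 has the longest bars, 10.6% and 12.2%.

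Probes with major satellite letters on the second strand gave large differences between stimulations with little spread between replicates. On the second strand, n211992 had a level of 4.49 and 4.53 in unstimulated cells, 4.70 and 4.71 with Pam2CSK4, 3.94 and 4.03 with anti-CD86, 1.70 and 1.98 with TLR2.CD86, 6.32 and 6.14 with anti-CD40, and -0.31 and -0.27 with TLR2.CD40. No group overlapped another, anti-CD40 was highest and TLR2.CD40 lowest, and both combinations with Pam2CSK4 lay below every other group. TLR2.CD40 was lower than anti-CD40 by 91.7-fold (log2 fold change -6.52, SE 0.125, adjusted p = 1.37e-07), and the log2 fold changes of n207171 and n196535 were -6.39 (SE 0.121) and -5.98 (SE 0.108). TLR2.CD86 was lower than Pam2CSK4, with log2 fold changes of -2.87, -2.80 and -2.73 for n211992, n207171 and n196535, and lower than anti-CD86, with -2.15, -2.10 and -1.90. All 3 probes kept these calls without any single array. Anti-CD40 was higher than anti-CD86 by a median of 2.24 for the 3 probes and higher than Pam2CSK4 by 1.5.

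Adding Pam2CSK4 thus lowered n211992 by different amounts with the 2 antibodies, and the difference, a contrast chosen after the values had been seen, was -4.37 (SE 0.177, adjusted p = 2.15e-05). The same contrast called 76 members in all (1.25%, background 0.826%), and 605 with the slide as a block (background 7.42%).

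The first strand moved in the same direction by smaller steps. Of 17 probes with letters of this strand 16 were members, and n187655, well above background on 9 arrays, was not. TLR2.CD40 against anti-CD40 called 12 of the 16 lower (background 2.9%), with a median of -2.0 and a range of -3.68 to -0.06. TLR2.CD86 against Pam2CSK4 called 7 lower with a median of -1.05 (background 0.0633%). Anti-CD40 against anti-CD86 called 11 higher (median 1.14, background 10%). On the second strand, TLR2.CD40 against TLR2.CD86 gave 3 of 3 lower with a median of -2.09 (background 12.2%). In contrast, this pair gave 1 of 16 lower on the first strand, with a median of -0.23. An example of this strand is n196532, with 2.82 and 2.90 in unstimulated cells, 3.23 and 3.41 with Pam2CSK4, 2.52 and 2.88 with anti-CD86, 1.62 and 1.83 with TLR2.CD86, 4.96 and 5.12 with anti-CD40 and 1.43 and 1.49 with TLR2.CD40. Replicates were not close in every probe of this strand. The levels of u185471 were -1.41 and 0.14 in unstimulated cells and -1.84 and 0.57 with anti-CD86. The probes share letters and are not independent of each other.

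Among the first-strand probes that begin like u201771, calls went with a single letter. Of the 9 probes that begin like u201771, the 6 with T21A were all called lower in TLR2.CD40 against anti-CD40, with log2 fold changes of -1.94 (n196530), -3.68 (n196533), -1.94 (u192888), -1.84 (u201775), -1.87 (u201779) and -2.06 (u201780). The 3 with T at this place were not called, with -0.64 (u201771, adjusted p = 0.237), -0.46 (u185473, adjusted p = 0.232) and -0.06 (n207168, adjusted p = 0.911). The letter did not separate calls over the whole strand. The probes n196529 and u197898 begin at another base of the repeat and hold T at the matching base. Both were called lower in the same pair, with -3.51 and -3.58. The probe u201775 differs from u201771 by T21A and nothing else. The difference of its level from that of u201771 was 0.11 and 0.09 in unstimulated cells, 0.27 and 0.10 with Pam2CSK4, 0.09 and 1.26 with anti-CD86, -0.61 and -0.62 with TLR2.CD86, 0.48 and 0.32 with anti-CD40, and -0.81 and -0.79 with TLR2.CD40. It was below 0 on the 4 arrays of the combinations and above 0 on the other 8. The 1.26 was on anti-CD86 replicate 2, the lowest array of u201771.

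Liver genes moved with the satellite in part. Of 6 genes listed, 5 had a probe and 0 were well above background on all arrays. Alb, Apoa1 and Fgb were well above on 11 arrays, Apoa2 on 10 and Ttr on none. In TLR2.CD40 against anti-CD40, limma gave log2 fold changes of -4.55 for Alb (adjusted p = 0.000195) and -4.60 for Apoa2 (adjusted p = 0.000266). It gave -3.97 for Fgb (adjusted p = 2.06e-05) and -0.92 for Apoa1 (adjusted p = 0.0939). The summed linear level of the list was 9.07 to 9.16 in unstimulated cells, 5.48 to 6.72 with Pam2CSK4, 4.47 to 5.46 with anti-CD86, 4.70 to 6.03 with TLR2.CD86, 5.22 to 6.69 with anti-CD40, and 0.320 to 0.491 with TLR2.CD40. It was lowest with TLR2.CD40, as the satellite was, but with anti-CD40 and TLR2.CD86 it lay in the same range. Its part in the satellite result was not tested.

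**Figure D3:**
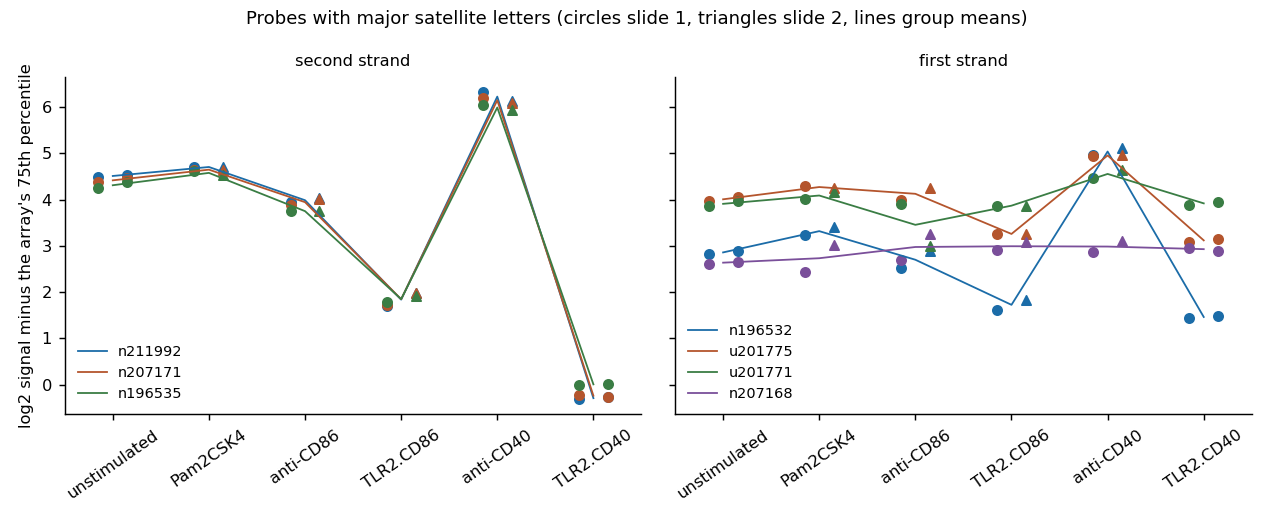
Levels (log2 signal minus the 75th percentile of the array) of 3 major satellite probes of the second strand on the left and 4 probes of the first strand on the right, for each array of the 6 groups. Circles are arrays of slide 1, triangles of slide 2 and lines join group means. The second strand falls to about -0.31 with TLR2.CD40 and reaches 6.32 with anti-CD40, and u201775 separates from u201771 in both combinations.

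Simple repeats of complementary letters, TG and AC, differed in opposite directions between TLR2.CD40 and TLR2.CD86. TG runs were held by 67 members, of which 33 were never saturated, and AC runs by 55, of which 54 were never saturated. The median level of the unsaturated TG members was 6.49 and 6.54 in unstimulated cells, 6.93 and 6.81 with Pam2CSK4, 6.58 and 6.79 with anti-CD86, 6.59 and 6.75 with TLR2.CD86, 7.15 and 6.99 with anti-CD40, and 7.31 and 7.35 with TLR2.CD40. The AC members had 5.30 and 5.36 in unstimulated cells, 5.32 and 5.48 with Pam2CSK4, 5.52 and 5.67 with anti-CD86, 5.70 and 5.93 with TLR2.CD86, 5.22 and 5.39 with anti-CD40, and 5.01 and 5.10 with TLR2.CD40. TG runs were highest and AC runs lowest with TLR2.CD40, on both arrays. Above unstimulated cells, the medians of TG and AC runs lay by 0.36 and 0.06 with Pam2CSK4, 0.11 and 0.24 with anti-CD86 and 0.13 and 0.47 with TLR2.CD86, all upward. The directions split with anti-CD40 (0.52 and -0.08) and with TLR2.CD40 (0.81 and -0.27). In TLR2.CD40 against TLR2.CD86, 31 of 33 TG members were called higher (median 0.67) and 51 of 54 AC members lower (median -0.74), where 12.2% of all probes were called. Over the scalings the medians were 0.46 to 0.85 and -0.90 to -0.56. The calls depended on the scaling. With each array centred on its median, this pair called 13 members of any sequence higher and 11 lower. Most of these TG and AC calls were therefore lost with that scaling. Against Pam2CSK4, TLR2.CD40 gave 11 TG members higher (31 with the slide block) and 0 AC members (21 lower with the block). The background of this pair was 9.91%, or 31.4% with the block. For anti-CD40 against anti-CD86 the counts were 5 TG members higher and 3 AC members lower (24 and 43 with the block). Here the background was 10%, or 34.7% with the block, and the TG median of 0.39 became -0.04 with median centring. The probes of a repeat share their letters and read overlapping pools of RNA, so the counts are not counts of separate transcripts.

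The other simple repeats gave few calls. AG runs, in 21 members, were saturated on at least 1 array in each of the 21. TC runs, in 25 members, gave 1 call, higher in anti-CD40 against anti-CD86 (background 10%). With the slide block 24 of the 25 were higher in TLR2.CD86 than in anti-CD86, with a median of 0.56 (background 7.55%). The 67 members with other simple repeats, 55 of them unsaturated, gave 6 calls in anti-CD40 against anti-CD86, all higher, and 3 in other pairs. The 6 were 10.9%, near the background of 10%.

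B1 and B2 were searched for with 8 motifs each, on both strands. B1 motifs were CTTTAATCC, CCAGCCTGG, GGTCTACAA, CCAGGACAG, GCTACACAG, AAACCCTGT, GGAGGCAGA and CCAGCACTC, and B2 motifs were GAGATGGCT, CAACCACAT, TGGTGGCTC, CAGCAACCA, AAGAGCACT, GGACCTGGG, GACTGCTCT and CCAGCACCC, where CCAGCAC begins a motif of both. At least 1 B1 motif on the sense strand was held by 0.75% of the noncoding RNA probes and 0.278% of the other probes, and on the antisense strand by 1.43% and 0.192%. For B2 the sense shares were 0.571% and 0.229%. At least 2 motifs, the limit used from here on, were held on the sense strand of B1 by 16 noncoding RNA probes, all 16 of them members and 12 saturated on at least 1 array. On the antisense strand of B1 they were held by 72, of which 62 were members and none saturated. On the sense strand of B2 they were held by 11 members of 11 probes (6 saturated), and on the antisense strand by 13 members of 17. Of the other probes, 1 held 2 such motifs.

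The antisense B1 members were higher with TLR2.CD40. The median level of the 62 was 1.64 and 1.77 in unstimulated cells, 1.73 and 2.00 with Pam2CSK4, 1.01 and 1.46 with anti-CD86, 1.43 and 1.93 with TLR2.CD86, 1.67 and 1.89 with anti-CD40, and 2.15 and 2.28 with TLR2.CD40. Both TLR2.CD40 arrays lay above the other 10, and anti-CD86 replicate 1 lay lowest. TLR2.CD40 against TLR2.CD86 called 22 of the 62 higher and 0 lower (35.5%, median 0.51, 0.40 to 0.69 over the scalings), where 12.2% of all probes were called in either direction. With each array centred on its median, this pair called 13 members of any sequence higher, so not all 22 kept their calls. With the looser limit of at least 1 motif, the same pair called 29 higher and 1 lower of 199 antisense B1 members (15.1%, median 0.32), closer to the share of all probes. Against Pam2CSK4 and anti-CD40, TLR2.CD40 gave 16 and 7 higher and 0 lower (25.8% and 11.3%, background 9.91% and 2.9%, medians 0.38 and 0.35). Anti-CD40 against anti-CD86 gave 12 higher and 0 lower (19.4%, background 10%, median 0.57, 0.15 to 0.59 over the scalings). With the slide block these counts were 55, 52, 48 and 57, where 34.5%, 31.4%, 15% and 34.7% of all probes were called. In anti-CD86 against Pam2CSK4 the median was -0.56 with 0 calls, and 54 lower with the block (background 18.9%). A member of this group, u201085, had levels of 0.62 and 0.81 in unstimulated cells, 0.70 and 0.81 with Pam2CSK4, 0.05 and 0.40 with anti-CD86, 0.68 and 0.58 with TLR2.CD86, 0.75 and 0.88 with anti-CD40, and 1.45 and 1.5 with TLR2.CD40. Its TLR2.CD40 arrays stood clear of all others, and it was higher than with TLR2.CD86 by 0.85 (SE 0.144, adjusted p = 0.00931). The unsaturated members with sense B1 letters (4), sense B2 letters (5) and antisense B2 letters (13) gave 0 calls in limma without the block. With the block, 9 of the 13 antisense B2 members were higher in TLR2.CD40 than with Pam2CSK4 (background 31.4%).

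**Figure D4:**
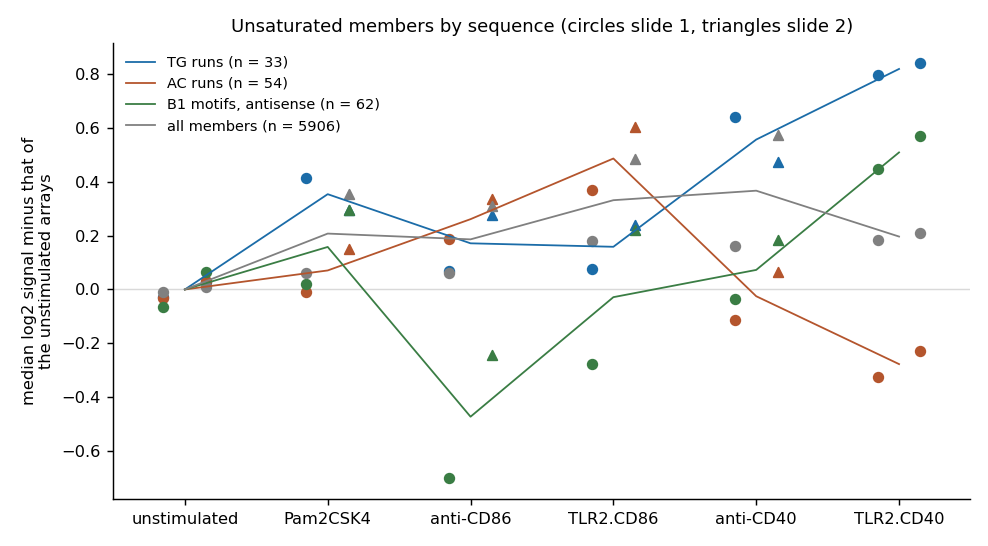
Median level of the unsaturated members of each sequence group, minus the mean of the unstimulated arrays, in log2 units for each array. Circles are slide 1, triangles slide 2 and lines join group means, with all 5906 unsaturated members in grey. TG runs (33 members) and antisense B1 motifs (62) lie highest and AC runs (54) lowest with TLR2.CD40.

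The widest ranges of group means among unsaturated members were those of u178229, n202324, u182895 and u203170, followed by the 3 satellite probes of the second strand. The probe u178229 had a level of 2.72 and 2.35 in unstimulated cells, 4.33 and 6.11 with Pam2CSK4, -3.27 and -3.31 with anti-CD86, 4.36 and 6.45 with TLR2.CD86, -2.53 and -1.30 with anti-CD40, and 6.44 and 5.62 with TLR2.CD40. It was high on the 6 arrays of cells given Pam2CSK4 and low on the 4 arrays of cells given an antibody alone, with unstimulated cells between. In log2 units TLR2.CD86 was higher than anti-CD86 by 8.70 (SE 0.788, adjusted p = 0.00797) and TLR2.CD40 higher than anti-CD40 by 7.94 (adjusted p = 0.00169). The former lost its call without anti-CD86 replicate 1 (8.72, adjusted p = 0.0592), as did the lower level of anti-CD86 against Pam2CSK4 (-8.51, adjusted p = 0.00613, and 0.0586 without that array).

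Other members shared this order of groups. The levels of n202324 were 1.95 and 2.01 in unstimulated cells, 3.02 and 4.28 with Pam2CSK4, -3.76 and -3.43 with anti-CD86, 2.90 and 4.07 with TLR2.CD86, -1.01 and 0.40 with anti-CD40, and 5.02 and 4.31 with TLR2.CD40. It was higher in TLR2.CD86 than in anti-CD86 by 7.08 (SE 0.595, adjusted p = 0.00517) and in TLR2.CD40 than in anti-CD40 by 4.96 (adjusted p = 0.00456). The lowest signal of n202324 was 1.08 times the dimmest signal called well above background on the same array. That of u178229 was 1.51 times. The differences of both from anti-CD86 thus start near the background limit. The levels of u182895 were 3.72 and 3.22 in unstimulated cells, 4.43 and 6.24 with Pam2CSK4, -2.19 and -1.47 with anti-CD86, 4.64 and 6.16 with TLR2.CD86, 1.31 and 2.34 with anti-CD40, and 6.27 and 5.05 with TLR2.CD40. In TLR2.CD86 against anti-CD86 it was higher by 7.23 (SE 0.75, adjusted p = 0.0123), a call lost without TLR2.CD86 replicate 2 (0.0887) or anti-CD86 replicate 1 (0.100). The call of u182895 in TLR2.CD40 against anti-CD40 (3.83, adjusted p = 0.0372) was lost in 8 of the 12 fits that left out an array, with adjusted p up to 0.224. A further probe of this order, u203170, lacked values on 3 arrays and was not tested.

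**Figure D5:**
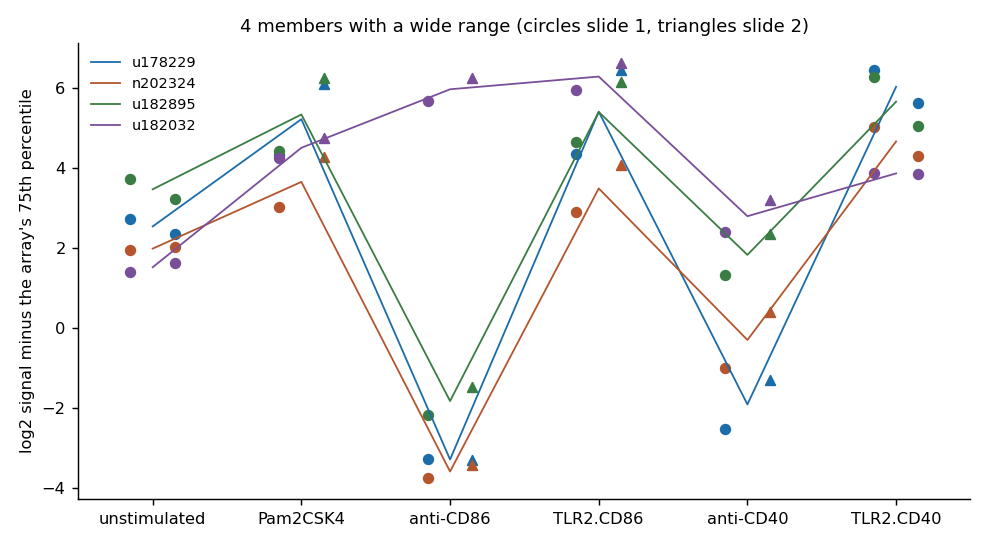
Levels (log2 signal minus the 75th percentile of the array) of u178229, n202324, u182895 and u182032 on each array of the 6 groups. Circles are slide 1, triangles slide 2 and lines join group means. The first 3 lie lowest with anti-CD86 and high in every group given Pam2CSK4, while u182032 is lowest in unstimulated cells and reaches 6.61 with TLR2.CD86.

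A different order was that of u182032, whose first letters are, from background knowledge, those of 18S ribosomal RNA. Its level was 1.40 and 1.63 in unstimulated cells, 4.26 and 4.75 with Pam2CSK4, 5.68 and 6.26 with anti-CD86, 5.96 and 6.61 with TLR2.CD86, 2.39 and 3.20 with anti-CD40, and 3.88 and 3.85 with TLR2.CD40. Both groups with anti-CD86 were highest, and anti-CD40 was lower than anti-CD86 (log2 fold change -3.17, SE 0.338, adjusted p = 0.00199). The range of 2 further members came from single arrays or from replicates far apart. The probe n191344 reached 6.09 in unstimulated replicate 2 and lay between -2.61 and -1.25 on the other 11 arrays, and n203253 ran from -1.88 to 5.36, with -1.58 and 5.10 in the TLR2.CD86 replicates.

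Members that set CD40 apart from CD86 were steadier. The probe u183278 had 1.42 and 1.39 in unstimulated cells, 1.21 and 0.98 with Pam2CSK4, 2.00 and 1.75 with anti-CD86, 2.03 and 1.53 with TLR2.CD86, -0.62 and -0.80 with anti-CD40, and -0.59 and -0.79 with TLR2.CD40. All 4 arrays with anti-CD40 lay below 0 and all others above. Anti-CD40 was lower than anti-CD86 (log2 fold change -2.59, SE 0.188, adjusted p = 0.000453) and TLR2.CD40 lower than TLR2.CD86 (-2.47, adjusted p = 0.000386). The same order was seen in n200715, with 0.81 and 0.72 in unstimulated cells, 0.88 and 0.66 with Pam2CSK4, 1.56 and 1.42 with anti-CD86, 1.49 and 1.20 with TLR2.CD86, -0.45 and -0.57 with anti-CD40, and -0.60 and -0.77 with TLR2.CD40 (anti-CD40 against anti-CD86 -2.0, SE 0.145, adjusted p = 0.000453).

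Other members stood apart with TLR2.CD40. The level of n205245 was 1.25 and 1.17 with TLR2.CD40 and between -1.04 and -0.09 on the other 10 arrays, a difference from TLR2.CD86 of 2.24 (SE 0.148, adjusted p = 0.000187). For n206921 it was -0.23 and -0.13 with TLR2.CD40 and between -2.90 and -1.98 elsewhere, higher than with TLR2.CD86 by 2.31 and than with Pam2CSK4 by 2.62 (adjusted p = 0.000376 and 0.000166). The replicates of n198900 differed more, with 1.27 and 0.13 with TLR2.CD40 and -2.14 to -1.42 elsewhere, and it was higher than with TLR2.CD86 by 2.45 (adjusted p = 0.00374). Further named calls were n198445, higher in TLR2.CD40 than with Pam2CSK4 by 2.07, and n201210, n183523 and n205409, higher in anti-CD86 than with Pam2CSK4 by 1.57, 1.61 and 1.90. The last 3 lost their calls in 1, 8 and 4 of the 12 fits that left out an array, with adjusted p up to 0.0586, 0.222 and 0.0952. The lower level of n181350 in TLR2.CD40 against TLR2.CD86 (-2.58) was lost in 5.

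Probes of the same transcript number gave a measure of how well a call carried over. Of 404 transcripts with 2 unsaturated member probes, 201 had probes that share a run of 20 bases on the same strand. Their levels over the 12 arrays correlated with a median r of 0.876, and both probes made 59 of the 129 calls that either made (45.7%). For the 202 transcripts whose probes shared no run, the median r was 0.422 and both probes made 21 of 140 calls (15%). All calls made by both had the same sign. These correlations share the 12 arrays and their slides and are given as a description.

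Members that share a run of 20 bases with a gene probe were few. There were 70 on the same strand (1.15%) and 69 on the opposite strand (1.13%), and correlations were taken for a part of them. On the same strand these covered 86 pairs with 55 members. The median r with the gene probe over 12 arrays was 0.62, or 0.77 over the 8 arrays of slide 1. On the opposite strand there were 50 pairs with 47 members, with a median r of -0.36, or -0.58 on slide 1. Many opposite-strand pairs shared a gene probe, those of Gm6940, Gm5920, Kis2 and LOC100047898 among them. On the same strand the members n207950 and u178790 each entered many pairs. The pairs are therefore not independent, and the medians describe these pairs only.

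Well-known long noncoding RNA genes were looked up by symbol on any probe. Of 40 listed, 28 had a probe, 18 were well above background on all 12 arrays and 5 were called in at least 1 pair, Meg3 among them although its probes were not well above background on all arrays. Pvt1, the gene next to Myc that is transcribed into a long noncoding RNA, was higher with CD40 engaged. Its mean level was -0.11 ± 0.00913 in unstimulated cells, -0.09 ± 0.327 with Pam2CSK4, -0.27 ± 0.00597 with anti-CD86, -0.04 ± 0.00908 with TLR2.CD86, 1.04 ± 0.212 with anti-CD40 and 1.19 ± 0.0475 with TLR2.CD40. It was higher in anti-CD40 than in anti-CD86 by 1.31 (SE 0.165, adjusted p = 0.00338), and TLR2.CD40 was higher than TLR2.CD86 by 1.23 and higher than Pam2CSK4 by 1.28. Malat1, an abundant nuclear RNA, was lower in TLR2.CD40 than in TLR2.CD86 (log2 fold change -0.74, SE 0.167, adjusted p = 0.0255). Rpph1, the RNA of ribonuclease P, was lower than with Pam2CSK4 both in anti-CD86 (-1.13, adjusted p = 0.0427) and in TLR2.CD40 (-0.73, adjusted p = 0.0469). Peg13, an imprinted RNA, gave 3 calls of -0.66 to -0.60. Meg3 was well above background on 3 arrays and was called in 2 pairs. Neat1, Gas5, Tug1, Snhg1, Rmrp and the rest of the 18 gave 0 calls in limma. The noncoding RNA probe for bic, n3933, was well above background on 10 arrays and was not a member.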

How the data were processed

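RNA of 12 samples was hybridised to a custom mouse array of 1 colour (Cy3). The deposited scanner files hold the authors' intensity values per spot, background-subtracted by the scanner software, and a deposited table holds log2 values, which on checking were the log2 processed signal minus a constant per array. Here log2 of the processed signal minus the 75th percentile of each array was used. Spots of a probe were averaged, control spots and outlier spots were left out, and the 36 members with a missing value were not tested.

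The fit took in 31596 probes, those for which some condition had each of its 2 arrays well above background, and used all 12 arrays with a mean for every condition (limma 3.58.1, R 4.3.3). A moderated F-test over 5 stimulations and 8 pairs of stimulations were tested, and p-values were Benjamini-Hochberg adjusted over all probes fitted, with an adjusted p under 0.05 as the threshold. Stimulated against unstimulated arrays served the choice of members and were only described. Tables and plots were made with Python 3.11.15, pandas 2.3.3 and matplotlib 3.10.9, and the fits were tested on simulated data. The number of arrays, 2 per group, limits the precision.

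Alternatives were median, quantile and detected-probe scaling, normexp background, the authors' table, other filters on dim probes, the slide or the replicate number as a block, the methods' one-way test, and leaving out each array. The contrast of the effect of Pam2CSK4 on both antibodies and the groups by sequence were added after the values had been seen. Members and lists were chosen with earlier results of these data known. Named members were the 10 brightest, the 5 nearest each limit of the rule, up to 3 highest and 3 lowest called unsaturated members without overlap of arrays in each pair, the 10 with the widest range of group means and the 5 steadiest, 1 probe per transcript, beside a list of long noncoding RNA genes. Probes shown for their sequence group were chosen after their values were seen. No array of an isotype control was among the samples.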

Additional observations from a re-analysis of the deposited data

Results flagged for a closer look

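The contrast called 76 members (1.25%, where 0.826% of all probes were), and the 8 of them that the rules for named members had picked are given here. For these the effect of adding Pam2CSK4 to anti-CD40 differed from its effect when added to anti-CD86 (limma, a contrast added after the values had been seen). The difference on the log2 scale was -4.37 (SE 0.177) for n211992, -4.29 (SE 0.171) for n207171 and -4.08 (SE 0.152) for n196535, each with an adjusted p of 2.15e-05, and these are the major satellite probes of the second strand. On the first strand it was -2.60 (SE 0.214) for n196532, -2.60 (SE 0.213) for u192891 and -2.79 (SE 0.226) for u197898. In all 6 the addition to anti-CD40 lowered the level more, as for n196532 with -3.58 against -0.97. The satellite probes share letters, so they are not 6 separate results. In the other direction, the difference was 2.46 (SE 0.209, adjusted p = 0.00156) for n205245, where the additions gave 1.99 and -0.46, and 1.78 (SE 0.246, adjusted p = 0.0200) for n206921, where they gave 2.07 and 0.30. Both TLR2.CD40 arrays lay on slide 1, while each of the other groups in this contrast had an array on either slide.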

How the results depend on the processing

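Counts of called members moved widely with the processing, and the balance of higher and lower calls turned over in some pairs, as the splits here and in the results show. In the order TLR2.CD86 against Pam2CSK4, TLR2.CD86 against anti-CD86, TLR2.CD40 against Pam2CSK4, TLR2.CD40 against anti-CD40, TLR2.CD40 against TLR2.CD86, anti-CD40 against anti-CD86, anti-CD40 against Pam2CSK4 and anti-CD86 against Pam2CSK4, the pairs gave 11, 21, 516, 217, 640, 623, 238 and 81 calls, and the F-test 894. Blocking on the slide gave 817, 741, 1821, 999, 1924, 2284, 1338 and 1708, with 3271 in the F-test and 605 for the contrast of the effects of Pam2CSK4 (76 without it). With median scaling they were 3, 7, 29, 33, 24, 42, 6 and 11, with 85 in the F-test. With the 75th percentile taken over the probes well above background on all arrays they were 207, 58, 844, 447, 901, 896, 557 and 455, with 1446 in the F-test. That scaling gave 195 higher and 12 lower in the first pair, 47 and 11 in the second, and 352 and 549 in TLR2.CD40 against TLR2.CD86, whose median over all probes it moved by -0.11. Quantile scaling gave 365 for anti-CD40 against Pam2CSK4 and 132 for anti-CD86 against Pam2CSK4, and split the first pair into 10 higher and 6 lower, as normexp did into 4 and 11. Without a filter on dim probes the counts were 3, 6, 137, 80, 182, 201, 28 and 2, with 230 in the F-test, and with the filter on all 12 arrays the first pair gave 19 and the last 140. The methods' one-way test called 464. The cause of these moves was not tested.

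Of the members described against unstimulated cells, 424 were higher in at least 1 stimulation with median scaling and 365 with normexp, and 535, 189 and 50 were lower with median scaling, quantile scaling and normexp. The class level with anti-CD40 lay 0.21 above unstimulated cells on slide 1 alone. Slide 2 alone gave no value, as it held no unstimulated array.

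With the replicate block the F-test called 1624 members and the pairs 25, 31, 940, 480, 1121, 1147, 514 and 330. Deviations of equal replicate numbers correlated by 0.55 to 0.80 among the 4 groups split over slides and by -0.14 to 0.06 between these and the unstimulated or TLR2.CD40 group, so the numbers do not pair all groups.

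Leaving out single arrays gave 3 to 11, 6 to 23, 100 to 606, 62 to 322, 147 to 735, 176 to 651, 33 to 249 and 1 to 80 calls in the pairs and 330 to 1024 in the F-test. The F-test gave 535 without either unstimulated array, 519 or 553 without anti-CD86 replicate 1 or 2, and 348 or 330 without TLR2.CD40 replicate 1 or 2. Without an unstimulated array the pairs that moved gave 3, 9, 293, 122, 388, 97 and 14, all but TLR2.CD40 against TLR2.CD86. Without Pam2CSK4 replicate 1, TLR2.CD40 against Pam2CSK4 gave 260, anti-CD40 against Pam2CSK4 68 and anti-CD86 against Pam2CSK4 9, and without replicate 2 these were 141, 33 and 8, with 3 for TLR2.CD86 against Pam2CSK4. Without anti-CD86 replicate 1, TLR2.CD86 against anti-CD86 gave 6, anti-CD40 against anti-CD86 176 and anti-CD86 against Pam2CSK4 1, and without replicate 2 the last 2 were 258 and 13, while without either anti-CD40 against Pam2CSK4 gave 139. Without TLR2.CD86 replicate 2 the first 2 pairs gave 7 and 9 and TLR2.CD40 against TLR2.CD86 311, which was 414 without replicate 1, and without either anti-CD86 against Pam2CSK4 gave 53. Without anti-CD40 replicate 2, TLR2.CD40 against anti-CD40 gave 106, anti-CD40 against anti-CD86 368 and anti-CD40 against Pam2CSK4 149. Without TLR2.CD40 replicate 1 or 2, TLR2.CD40 against Pam2CSK4 gave 118 or 100, against anti-CD40 62 or 73 and against TLR2.CD86 147 or 149, and without either the pairs without this group gave 3, 10, 415, 116 and 13.

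The class level above unstimulated cells ranged over these fits from 0.11 to 0.53 with Pam2CSK4, 0.10 to 0.44 with anti-CD86, 0.22 to 0.69 with TLR2.CD86, 0.21 to 0.80 with anti-CD40 (0.80 without its replicate 1 and 0.21 without its replicate 2) and 0.25 to 0.29 with TLR2.CD40. Members higher in at least 1 stimulation numbered 762 to 1699, with 1306 without Pam2CSK4 replicate 1, 1461 without TLR2.CD86 replicate 1 and 1699 without anti-CD40 replicate 1, and members lower 123 to 189, with 189 without TLR2.CD86 replicate 2. Saturation limits the brightest members, which have no usable fold change, and the dimmest lie at the edge of the background.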
